A study of Homo sapiens with 6 samples.

Results

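The numbered ZNF zinc finger genes examined here are the genes whose symbol is ZNF followed by a 3-digit number that begins with 5, 6, 7 or 8 and, in some, a letter. Membership rests on the name alone in the messenger RNA tables of the series, and 256 of 19871 symbols matched. The rule itself was chosen with earlier results of these data known. Of these 256, 163 had a mean of at least 50 counts over the 3 groups, 53 were above 0 but under 50, and 40 were listed at 0 in every group. Fold changes are given for the 163, against 11744 other genes that passed the same minimum.

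Most human ZNF genes encode C2H2 zinc finger proteins, in which a pair of cysteines and a pair of histidines hold a zinc ion and each finger reads a few bases of DNA. The largest class also carries a KRAB domain, which binds the co-repressor TRIM28, and TRIM28 in turn recruits SETDB1 and HP1 proteins to lay down H3K9 methylation, mainly over transposable elements. Many KRAB genes stand in long arrays on chromosome 19, where they arose by duplication and remain alike in sequence. A smaller number of genes with a ZNF symbol have few fingers and work in ribosome assembly, translation control or chromatin complexes.

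RNA was sequenced from HCT116 cells, a human colorectal cancer line, in 3 groups of 2 libraries each, 6 in all: the negative control (NC), cells transfected with a plasmid carrying the long non-coding RNA GAS5 (GAS5), and cells transfected with siRNA against YAP (siYAP). The labels list all 3 groups under siRNA and do not say whether NC received an empty vector, a control siRNA or both, and all values come from 1 cell line. The libraries were strand-marked and sequenced on an Illumina HiSeq. The deposited values are the authors' means per group, with no value for a single library, so no spread between libraries and no test could be computed. Errors below are 95% exact (Clopper-Pearson) intervals on the counts behind the 2 libraries, and they cover counting error only. Both comparisons share the NC group. In such bulk RNA, fewer cells making a transcript and less of it in each cell cannot be told apart.

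The sum of mean counts was 27206123 for NC, 25521577 for GAS5 and 26298036 for siYAP. YAP1, the siRNA target, stood at 3480 mean counts in NC, 2679 with GAS5 and 1444 with siYAP, a log2 fold change of -1.18 (-1.25 to -1.12) in siYAP after scaling. CTGF and CYR61, textbook YAP targets, had log2 fold changes of 0.16 (-0.16 to 0.49) and 0.29 (0.17 to 0.41) in siYAP, and of 0.72 (0.44 to 1.03) and 1.08 (0.98 to 1.19) in GAS5. The GAS5 transcript itself was not analysed here. Of 6 epithelial markers, 5 passed the minimum (EPCAM, CDH1, KRT8, KRT18 and CDX2), and VIL1 did not. Of 6 markers of leukocytes, fibroblasts and endothelium, COL1A1 alone passed, with 378 mean counts in NC, and PTPRC and COL1A2 were listed at 0 in NC. COL1A1 had log2 fold changes of 0.67 in GAS5 and 0.60 in siYAP. The epithelial markers lay between -0.43 (CDH1) and 0.33 (KRT8) in GAS5 and between -0.08 (EPCAM) and 0.45 (KRT8 and KRT18) in siYAP, and the part of these markers in the results was not tested.

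The numbered ZNF genes took a small part of the RNA. Their counts made up 0.424% of all counts in NC (95% Wilson interval 0.423 to 0.426%), 0.408% in GAS5 (0.407 to 0.410%) and 0.387% in siYAP (0.385 to 0.389%). The median level of the 163 genes in NC was 4.61 FPKM, a level per transcript length, against 11.8 FPKM for the other genes. The highest level in NC was that of ZNF664, at 59.8 FPKM. It was followed by ZNF638 at 47.8, ZNF593 at 44.7, ZNF768 at 38.9, ZNF706 at 37.2, ZNF644 at 26.1, ZNF622 at 23.4, ZNF714 at 22.0, ZNF770 at 20.9 and ZNF655 at 20.0 FPKM. The ZNF714 level is a sum over 47 transcripts, many of them assembled from the reads and given its symbol. None of these 10 proteins matched the KRAB motif used here, and ZNF593, ZNF638 and ZNF622 are known for roles in ribosome assembly or RNA processing.

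GENCODE 29 on GRCh38 held 255 of the 256 genes, and the proteins it annotates were searched for the KRAB motif and for C2H2 fingers. The KRAB motif was the residue pattern F.DV...F...EW..L, where a dot is any residue, and it misses KRAB variants. It was found in 137 genes, of which 79 passed the count minimum, and was absent from 118, of which 84 passed. KRAB genes were expressed at lower levels, with a median of 3.61 FPKM in NC against 6.58 FPKM in genes without the motif. Chromosome 19 held 131 of the genes, and 72 of these passed. The 40 genes at 0 in every group included 25 with the KRAB motif, for example ZNF568, ZNF569 and ZNF729.

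The classes also differ in base composition. The most abundant Ensembl transcript, called the most abundant transcript here and below, had a median GC content of 42.9% in KRAB genes. It was 51.6% in genes without the motif. Transcripts assembled from the reads were left out of this choice, even where they had more counts, as in ZNF664 and ZNF697. As examples, the first finger with the few codons that follow it was taken from 6 genes. In these, at least 95% of the 50-base stretches of the most abundant transcript lie in no other gene. They are the 3 KRAB genes lowest in siYAP and the 3 genes without a KRAB motif highest in siYAP for which such a finger lies in 1 exon. Values in siYAP climbed with GC content (below), so genes from opposite ends do not represent the classes. Of the 84 expressed genes without the motif, 38 had under 48% GC, with a median of 41.8%. The stretches are coding exons of GENCODE 29 on GRCh38: ZNF589 at chr3:48268439-48268522, plus strand, ZNF595 at chr4:85943-86026, plus strand, ZNF684 at chr1:40546804-40546887, plus strand, ZNF697 at chr1:119623689-119623772, minus strand, ZNF512B at chr20:63966665-63966751, minus strand, and ZNF513 at chr2:27378729-27378812, minus strand. Capitals mark the codons of the cysteines and histidines that hold the zinc ion.
ZNF589: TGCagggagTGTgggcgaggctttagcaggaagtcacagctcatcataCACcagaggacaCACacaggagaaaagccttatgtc
ZNF595: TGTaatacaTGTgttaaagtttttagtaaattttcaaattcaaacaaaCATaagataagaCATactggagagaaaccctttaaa
ZNF684: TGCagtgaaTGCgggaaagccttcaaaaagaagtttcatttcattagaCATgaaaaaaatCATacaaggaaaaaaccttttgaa
ZNF697: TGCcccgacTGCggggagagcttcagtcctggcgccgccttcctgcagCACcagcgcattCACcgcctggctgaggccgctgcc
ZNF512B: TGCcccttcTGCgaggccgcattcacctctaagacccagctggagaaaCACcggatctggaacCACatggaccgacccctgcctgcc
ZNF513: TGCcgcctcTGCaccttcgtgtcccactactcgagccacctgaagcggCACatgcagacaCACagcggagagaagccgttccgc
In 5 of the 6 the cysteine and histidine codons stand at the same places over 84 bases, and in ZNF512B, with 87 bases, the last histidine codon comes 1 codon later. The bases between them differ. At the last base of the codons of the printed stretch, GC content was 14.3% in ZNF595, 32.1% in ZNF684 and 60.7% in ZNF589. It was 82.1% in ZNF697, 82.8% in ZNF512B and 92.9% in ZNF513. Over the whole coding sequence the gap was smaller, with 35.6% GC at the last codon bases in ZNF595, 40.7% in ZNF684 and 51.4% in ZNF589, against 66.9% in ZNF513, 75.2% in ZNF512B and 84.8% in ZNF697.

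With YAP siRNA, the numbered ZNF genes stood lower as a group. The median log2 fold change was -0.14 over the 163 genes and -0.01 over all genes tested, and 109 of the 163 (66.9%) were below 0 against 50.5% of the other genes. The siYAP level was the lowest of the 3 groups for 92 of the 163 genes (56.4%), against 38.8% of the other genes. The counting interval lay wholly below 0 for 76 of the 163 genes (46.6%), against 37.1% of all genes tested, and wholly above 0 for 29 (17.8%), against 36.0%. Such intervals are narrower for genes with higher counts, and the numbered ZNF genes had a median of 336.7 mean counts over the groups, against 872.3 in the other genes. The median half-width of these intervals was 0.16 on the log2 scale. By mean count, the siYAP median was -0.29 at 50 to 100, -0.13 at 100 to 200, -0.145 at 200 to 500 and -0.11 at 500 to 1000. In the 30 genes over 1000 it was -0.02, against 0.008 in the other genes there.

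Large changes were few. At least 1.5-fold lower in siYAP were 12 of the 163 genes (7.36%), against 4.36% of all 11907 genes tested and 5.40% of the other genes weighted to the same distribution of mean counts. At least 1.5-fold higher was 1 gene (0.613%), against 2.83% of all genes and 4.04% of the weighted other genes. The number lower is thus near the background. With only the 115 genes whose most abundant transcript is at least 95% unique, 6 (5.22%) were at least 1.5-fold lower and the median was -0.09. With a mean of at least 200 counts 5 genes were lower, and with no filter on low counts 19 were lower and 9 higher. No share of all genes is given at 200 or with no filter, so these numbers are not read against a background. Among the other genes with 50 to 100 mean counts, 9.05% were at least 1.5-fold lower and 10.1% higher in siYAP.

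**Figure D1:**
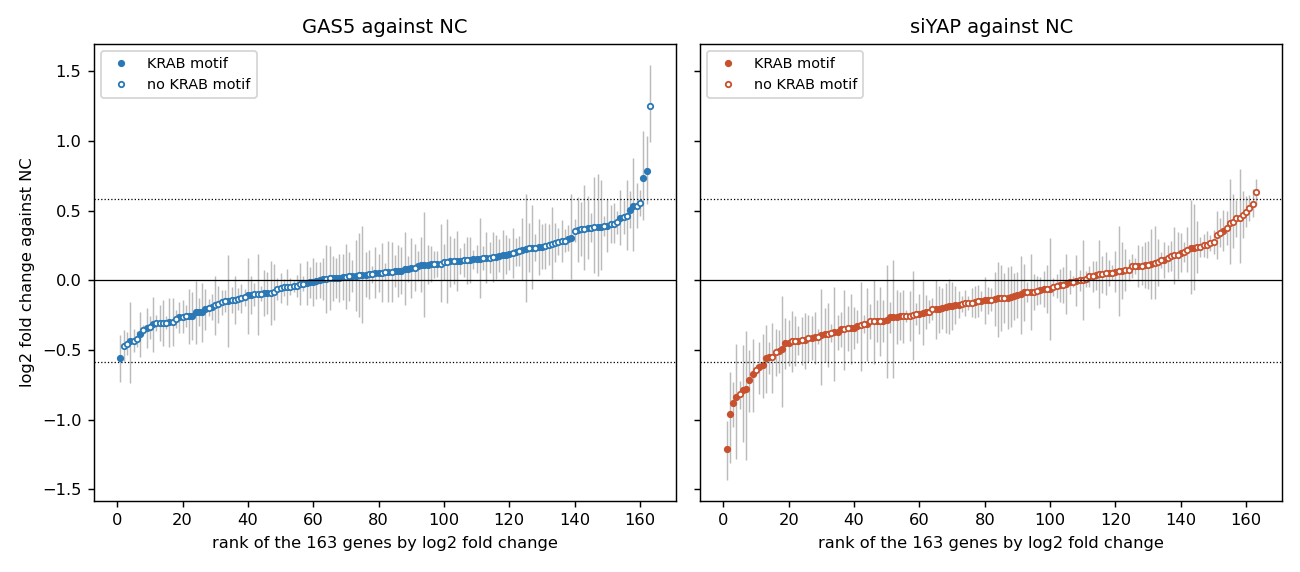
Log2 fold change against NC (y axis) of the 163 genes, ranked from lowest to highest (x axis), for GAS5 (left) and siYAP (right); filled points are genes with a KRAB motif, open points genes without, grey lines 95% counting intervals and dotted lines 1.5-fold. In siYAP 12 genes lie under the lower dotted line and 109 under 0, while in GAS5 no gene lies under the lower line and 3 lie over the upper.

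Of the 12 genes lower in siYAP, 10 were KRAB genes and 2 lacked the motif. These were 12.7% of the 79 KRAB genes and 2.38% of the 84 others, against 4.36% of all genes tested. ZNF587B, a KRAB gene at the distal end of the long arm of chromosome 19, was the lowest, with 326.4 mean counts in NC, 305.6 with GAS5 and 140.1 with siYAP, where GAS5 and siYAP counts are scaled to NC here and below. Its log2 fold change in siYAP was -1.21 (-1.43 to -1.01), and its GAS5 value lay close to NC. ZNF860 had 121.5 mean counts in NC, 112.5 with GAS5 and 61.5 with siYAP. ZNF589, a KRAB gene also known as SZF1 and studied in blood stem cells, had 465.5, 367.3 and 251.3. For ZNF589 GAS5 lay between NC and siYAP.

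ZNF595, a KRAB gene near the tip of the short arm of chromosome 4, had 74.5 mean counts in NC, 97.9 with GAS5 and 40.8 with siYAP. ZNF512 had 1146.5 in NC, 1279.4 with GAS5 and 648.9 with siYAP. ZNF684 had 100.5, 112.0 and 57.3 in the same order. In these 3 genes siYAP was the lowest group and GAS5 the highest. ZNF738 had 58.0 in NC, 76.3 with GAS5 and 32.9 with siYAP, and it lay just above the minimum of 50. ZNF519 had 237.0, 198.0 and 143.4.

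The remaining 4 were ZNF724, ZNF664, ZNF699 and ZNF674, with log2 fold changes of -0.67, -0.64, -0.62 and -0.61 in siYAP. ZNF664 was the most abundant gene of the family, with 7203 mean counts in NC, 5630.5 with GAS5 and 4607.8 with siYAP, so its fold change of -0.64 (-0.68 to -0.61) had the narrowest interval of the 12. In 6 of the 12, under 95% of the stretches of the most abundant transcript were unique to the gene, against 48 of all 163. The share of 50-base stretches found in no other gene was 44.4% in ZNF724, 62.9% in ZNF512, 79.5% in ZNF587B, 82.2% in ZNF674, 94.2% in ZNF860 and 94.2% in ZNF664, and the division of their reads between genes is uncertain. The other 6, ZNF589, ZNF595, ZNF684, ZNF738, ZNF519 and ZNF699, were at least 95% unique, though ZNF595 (96.6%), ZNF519 (96.9%) and ZNF738 (99.8%) also shared some stretches.

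**Figure D2:**
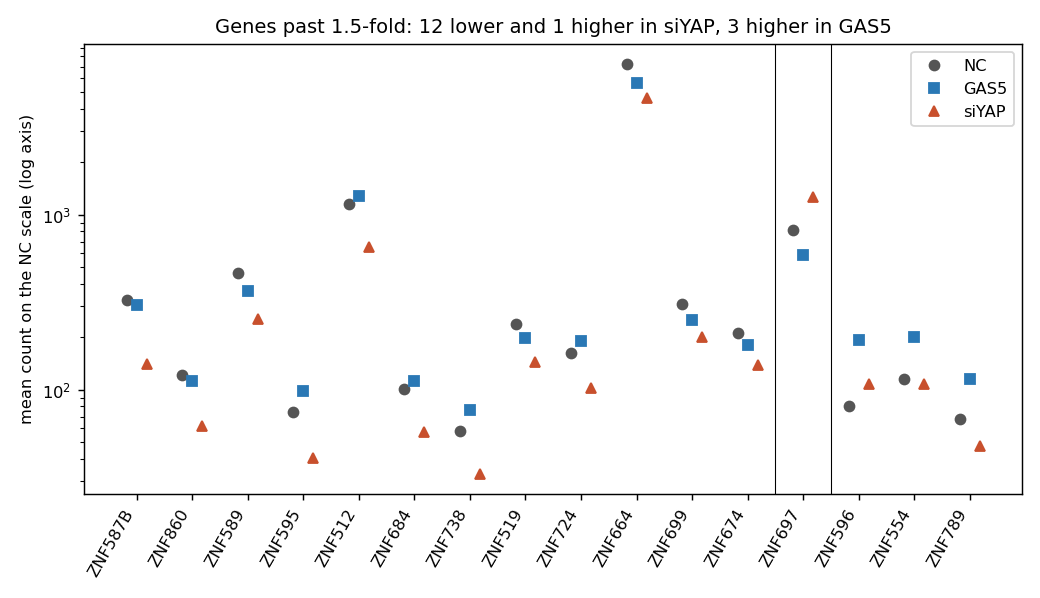
Mean count on the NC scale (log axis) in NC, GAS5 and siYAP for the genes past 1.5-fold, with no error bars because each point is 1 group mean. For the 12 genes at the left the siYAP point is the lowest of the 3, from 32.9 in ZNF738 to 4607.8 in ZNF664.

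The 8 genes with the highest values in siYAP were ZNF697, ZNF503, ZNF593, ZNF512B, ZNF513, ZNF837, ZNF579 and ZNF703, and none of them matched the KRAB motif. Of the KRAB genes, 12 of 79 were above 0 in siYAP. ZNF697 had 815 mean counts in NC, 588 with GAS5 and 1265 with siYAP, a log2 fold change of 0.63 (0.54 to 0.73), and was the only gene over 1.5-fold. This value rests on 1 transcript assembled from the reads (497.6 counts in NC and 921.5 in siYAP before scaling), and the annotated transcript alone gave -0.14. ZNF503 and ZNF703, related developmental repressors, had log2 fold changes of 0.55 (0.45 to 0.65) and 0.42 (0.23 to 0.62) in siYAP. In GAS5 they had 0.38 (0.27 to 0.48) and 0.36 (0.17 to 0.56). ZNF512B was at 0.49, ZNF513 at 0.47, ZNF837 at 0.45 and ZNF579 at 0.44 in siYAP. The ZNF579 value also rests on a transcript assembled from the reads (1.19), and its annotated transcript with at least 50 counts gave -0.04. Except for ZNF697, with a GC content of 50.01%, the most abundant Ensembl transcripts of these 8 genes held between 62.0 and 70.1% GC.

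In siYAP the KRAB class lay lower than the rest. The median log2 fold change was -0.21 in the 79 KRAB genes, of which 67 (84.8%) were below 0, and 0.00 in the 84 genes without the motif, of which 42 were below 0. The siYAP level was the lowest of the 3 groups in 60 of the 79 KRAB genes and in 32 of the 84 others. The medians also went with the number of fingers, from 0.06 in the 33 genes with at most 4 fingers through -0.15 in 52 genes with 5 to 9 and -0.17 in 49 genes with 10 to 14 to -0.26 in 29 genes with 15 or more. On chromosome 19 the median was -0.20 over 72 genes, and elsewhere -0.04 over 91 genes.

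GC content moved with the same values. Over the other genes the siYAP median was -0.20 at a GC content under 40%, -0.18 at 40 to 44%, -0.10 at 44 to 48%, -0.02 at 48 to 52%, 0.09 at 52 to 56% and 0.21 above 56%. The numbered ZNF genes followed the same slope, with medians of -0.29, -0.26, -0.28, -0.07, -0.02 and 0.18 in the same bins. Their median was below that of the other genes in each of the 6 bins, by the most in the bin from 44 to 48%. Weighted by GC content, the other genes had a siYAP median of -0.06, and weighted by GC content and mean count together 6.14% of them were at least 1.5-fold lower. The part of GC content in the siYAP values was not tested.

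**Figure D3:**
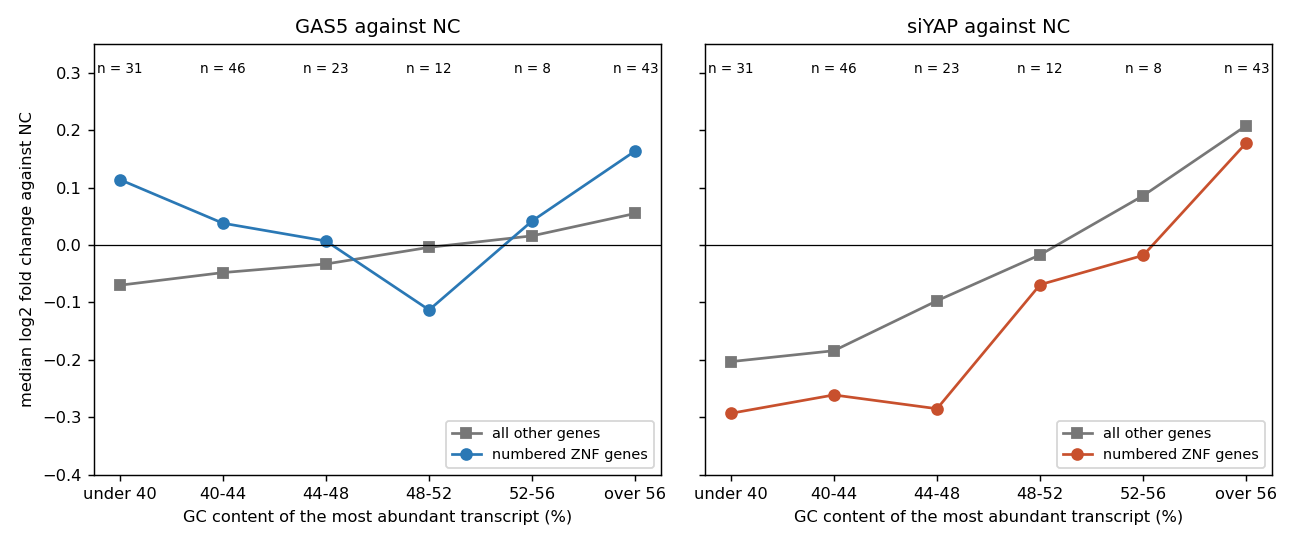
Median log2 fold change against NC (y axis) by GC content of the most abundant Ensembl transcript (x axis), for the numbered ZNF genes (circles, number of genes printed above each bin) and all other genes (squares), in GAS5 (left) and siYAP (right). In siYAP both lines climb with GC content, from -0.29 to 0.18 and from -0.20 to 0.21, with the ZNF line below the other in every bin.

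Within a range of GC content, the KRAB genes and the rest lay closer together in siYAP. Under 48% GC, the median was -0.28 in 62 KRAB genes and -0.26 in 38 genes without the motif, against -0.16 in 5244 other genes. At 48% GC or more it was 0.05 in 17 KRAB genes and 0.15 in 46 genes without the motif, against 0.13 in 6373 other genes. Of the 100 numbered ZNF genes under 48% GC, 91 were below 0, compared with 74.4% of the other genes in that range. ZNF589, at 50.5% GC, was the only one of the 12 lower genes over 48%.

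**Figure D4:**
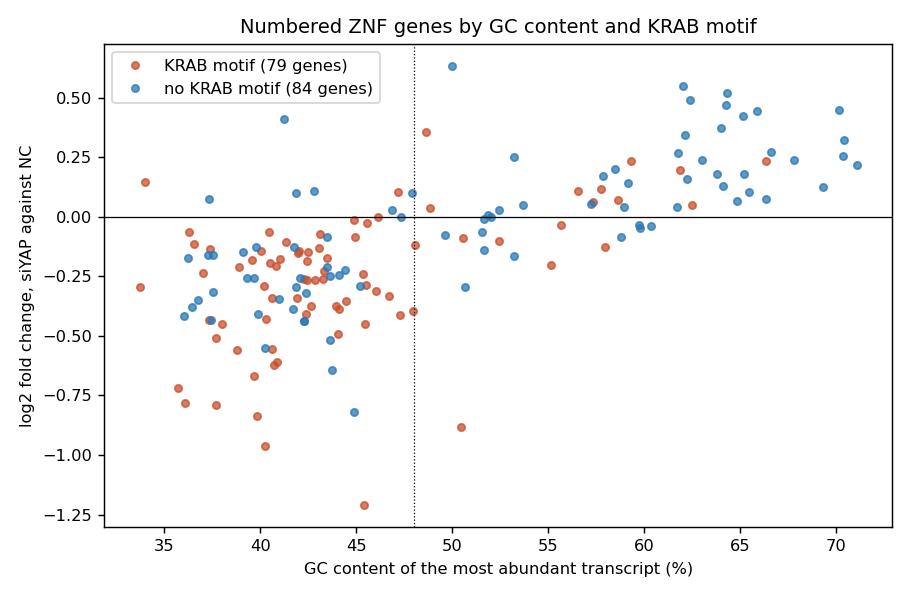
Log2 fold change of each of the 163 genes in siYAP against NC (y axis) by the GC content of its most abundant Ensembl transcript (x axis), in genes with and without a KRAB motif. The dotted line marks 48% GC. Points of both classes lie mostly under 0 at the left, and the right side holds 17 KRAB genes and 46 genes without the motif.

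The chromosome 19 genes are described here by position (GRCh38, members no more than 2 Mb apart counted as 1 run). For scale, 50.7% of all genes tested were below 0 in siYAP. Among the other genes it was 74.4% under 48% GC and 30.7% at 48% GC or more. In the run at chr19:51804816-53496255, all 15 expressed genes were below 0 in siYAP, with a median of -0.26 and a median GC content of 40.6%. The run at chr19:34758076-37817300 held 9 expressed genes, all below 0, with a median of -0.26. In the run at chr19:7069444-12633840 12 of 13 were below 0, with a median of -0.26, and in the run at chr19:19785839-23945159 all 5 were, with a median of -0.31 and a median GC content of 37.4%. In the run at chr19:39984134-43601157 only 3 of 5 were below 0, with a median of -0.06 and a median GC content of 51.6%. The last run, at chr19:55476332-58418327, which holds ZNF587B, had 11 of 22 genes below 0, a median of 0.03 and a median GC content of 48.3%. It was split by class, with 11 of its 13 KRAB genes below 0 and all 9 of its genes without the motif above 0. Over the whole of chromosome 19, 48 of 50 expressed KRAB genes and 10 of 22 genes without the motif were below 0, and their transcripts had median GC contents of 42.4% and 60%.

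Because YAP acts on DNA through TEAD factors, which bind GGAATG, promoters were searched for these letters. The window was the 250 bases before the transcription start listed first for each gene in RefSeq (GRCh38.p14), and GGAATG was sought on both strands, so also as CATTCC. RefSeq held a promoter for 137 of the 163 genes and 11 of the 12 lower genes, with ZNF738 unmatched. The letters were present in 6 of these 11 (54.5%), in 11 of the 126 other numbered ZNF genes (8.7%), and in 33 of 368 non-member genes at least 1.5-fold lower in siYAP (9.0%). They were present in 827 of the 9226 genes tested that had a listed promoter (9.0%), and in 11.9% of all listed promoters. The search was made after the fold changes were known, and with any listed promoter counted the shares were 54.5%, 10.3% and 12.8%. The median GC content of the window was 58.0% in the 11 lower genes and 63.2% in the 126. The 6 windows are shown because they hold the letters, which are in capitals. They lie at chr19:57830049-57830298, plus strand (ZNF587B), chr3:31981500-31981749, plus strand (ZNF860), chr4:53071-53320, plus strand (ZNF595), chr2:27582792-27583041, plus strand (ZNF512), chr18:14132436-14132685, minus strand (ZNF519), and chrX:46545422-46545671, minus strand (ZNF674).
ZNF587B: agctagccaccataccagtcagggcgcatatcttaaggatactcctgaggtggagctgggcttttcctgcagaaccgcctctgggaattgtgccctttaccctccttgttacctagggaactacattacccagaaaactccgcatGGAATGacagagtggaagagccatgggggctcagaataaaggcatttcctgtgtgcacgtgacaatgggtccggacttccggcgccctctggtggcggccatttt
ZNF860: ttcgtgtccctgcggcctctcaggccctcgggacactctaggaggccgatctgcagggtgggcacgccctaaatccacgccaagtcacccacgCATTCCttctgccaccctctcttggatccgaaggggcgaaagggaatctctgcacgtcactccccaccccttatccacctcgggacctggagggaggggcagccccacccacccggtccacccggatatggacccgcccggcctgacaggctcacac
ZNF595: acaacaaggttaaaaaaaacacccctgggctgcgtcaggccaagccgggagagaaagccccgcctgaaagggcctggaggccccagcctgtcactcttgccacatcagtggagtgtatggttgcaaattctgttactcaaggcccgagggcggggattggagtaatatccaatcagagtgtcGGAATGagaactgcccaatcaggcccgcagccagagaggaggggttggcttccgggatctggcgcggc
ZNF512: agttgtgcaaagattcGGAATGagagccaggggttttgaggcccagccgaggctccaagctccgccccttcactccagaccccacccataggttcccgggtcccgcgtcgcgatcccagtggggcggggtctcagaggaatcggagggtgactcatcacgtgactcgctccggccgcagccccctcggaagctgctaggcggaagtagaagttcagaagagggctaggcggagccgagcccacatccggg
ZNF519: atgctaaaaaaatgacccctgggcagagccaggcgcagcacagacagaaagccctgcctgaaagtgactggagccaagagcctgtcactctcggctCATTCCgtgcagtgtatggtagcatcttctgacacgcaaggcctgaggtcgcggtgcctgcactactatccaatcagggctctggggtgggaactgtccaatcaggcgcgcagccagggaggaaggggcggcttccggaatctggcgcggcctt
ZNF674: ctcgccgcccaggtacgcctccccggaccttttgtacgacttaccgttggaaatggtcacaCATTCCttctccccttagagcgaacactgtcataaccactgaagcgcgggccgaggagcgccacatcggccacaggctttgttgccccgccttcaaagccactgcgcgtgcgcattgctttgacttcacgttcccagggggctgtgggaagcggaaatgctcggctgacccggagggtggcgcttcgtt
The distance from the end of the letters to the start varied, with 62 bases in ZNF595, 99 in ZNF587B, 148 in ZNF519, 151 in ZNF860, 183 in ZNF674 and 228 in ZNF512. Read side by side, the printed windows of ZNF595 and ZNF519 are alike over much of their length. The 6 matches are therefore not all independent. The longest run of bases that both windows share is 13, the longest among these 6, and no alignment was made. ZNF589, ZNF684, ZNF724, ZNF664 and ZNF699 lacked the letters in this window. Of the other motifs searched, CCGGAAGT (ETS factors) was in 1 of the 11 and 10.2% of all 137, TGACGTCA (CREB) in 0 and 2.2%, and TCGCGA in 1 and 5.8%. These matches are letters only and show no binding.

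With GAS5, the numbered ZNF genes stood slightly higher by the median gene, but those with the most counts did not. The median log2 fold change was 0.06, against -0.01 over the other genes, and 102 of the 163 (62.6%) were above 0, against 49.0%. By mean count, the median was 0.22 at 50 to 100, 0.06 at 100 to 200, 0.05 at 200 to 500 and 0.12 at 500 to 1000. In the 30 genes over 1000 it was -0.10, against -0.001 in the other genes there. The share of all counts held by the numbered ZNF genes was lower in GAS5 (0.408%) than in NC (0.424%). The counting interval lay wholly above 0 for 53 genes (32.5%), against 32.5% of all genes tested, and wholly below for 38 (23.3%), against 33.6%. No gene was at least 1.5-fold lower, against 2.02% of all genes tested and 3.14% of the other genes of like mean count. At least 1.5-fold higher were 3 genes (1.84%), against 2.47% of all genes and 3.54% of the weighted other genes. These numbers depend on the setting. For Ensembl transcripts alone 5 were lower and 5 higher, and with no filter on low counts 7 were lower and 15 higher. No share of all genes is given for these settings, so these numbers are not read against a background. Among the other genes with 50 to 100 mean counts, 9.05% were at least 1.5-fold lower and 10.7% higher in GAS5. GAS5 was the highest of the 3 groups for 84 of the 163 genes (51.5%), against 34.3% of the other genes.

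The 3 higher genes were expressed at low levels. ZNF596 had 80.0 mean counts in NC, 192.6 with GAS5 and 107.1 with siYAP, a log2 fold change of 1.25 (0.99 to 1.55) in GAS5. ZNF554, a KRAB gene, had 115.0 in NC, 199.1 with GAS5 and 107.1 with siYAP, and its value of 0.78 (0.55 to 1.04) belonged to GAS5 while siYAP lay near NC. ZNF789, also a KRAB gene, had 68.0, 114.1 and 47.7, with GAS5 above and siYAP below NC. Next came ZNF593 (0.56), ZNF597 (0.53), ZNF675 (0.53), ZNF707 (0.50) and ZNF775 (0.46). ZNF675 is known as an inhibitor of TRAF6 signalling.

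The lowest values in GAS5 were small. ZNF780B had 378.5 mean counts in NC, 256.5 with GAS5 and 276.8 with siYAP, a log2 fold change of -0.56 (-0.73 to -0.39) in GAS5 and -0.45 (-0.61 to -0.29) in siYAP. ZNF697 followed with -0.47 (-0.58 to -0.36) in GAS5, and this value too rests on the transcript assembled from the reads, since the annotated ZNF697 transcript gave -0.10 in GAS5 and -0.14 in siYAP. ZNF621 was at -0.46, ZNF713 at -0.43, ZNF516 at -0.43, ZNF518B at -0.42, ZNF862 at -0.39 and ZNF664 at -0.36. ZNF516 is known as a partner of CtBP co-repressors. The ZNF516 value also depends on a transcript assembled from the reads, at -0.92 in GAS5. Its annotated transcripts with at least 50 counts were at 1.34 and -0.46.

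The GAS5 median was 0.08 in KRAB genes and 0.03 in the others, and 0.11 on chromosome 19 against 0.01 elsewhere. Under 48% GC it was 0.05 in the numbered ZNF genes and -0.05 in the other genes. At 48% GC or more it was 0.08 against 0.03. By GC bin, the ZNF medians ran 0.11, 0.04, 0.01, -0.11, 0.04 and 0.16 from the lowest to the highest, while those of the other genes climbed from -0.07 under 40% GC to 0.06 above 56%, each bin above the one before. The part of GC content in the GAS5 values was not tested.

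Among members with known roles outside KRAB repression, 4 of the 5 ribosome and RNA factors had a log2 fold change above 0 in GAS5, and 4 of 5 in siYAP, against 49.1% and 49.3% of all genes tested. ZNF593, a factor of large ribosomal subunit assembly, had 834.5 mean counts in NC, 1226.9 with GAS5 and 1196.6 with siYAP, log2 fold changes of 0.56 (0.46 to 0.65) and 0.52 (0.43 to 0.61). ZNF598, the ubiquitin ligase that marks collided ribosomes, had 1027.0, 1369.8 and 1239.6. ZNF622, which acts late in large subunit maturation, had 1101.5, 1339.5 and 1309.0. In these 3 gene sums NC was the lowest group. For ZNF598 most of the rise rests on 1 transcript that was listed at 0 in NC. Its other 2 transcripts with at least 50 counts had log2 fold changes of -0.05 and 0.09 in GAS5 and of 0.17 and 0.02 in siYAP. ZNF638, an RNA-binding nuclear protein, had 4546.5, 4412.2 and 3803.0, with siYAP lowest at -0.26 (-0.30 to -0.21). ZNF830, linked to splicing and DNA repair, was at 0.14 (-0.03 to 0.31) in GAS5 and 0.11 (-0.06 to 0.28) in siYAP, with both intervals across 0. For the 5 genes the medians were 0.28 and 0.25, and none passed 1.5-fold. This is near the background, since at most 4.36% of all genes passed it in any 1 direction.

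Of the 9 chromatin cofactors, 8 had a log2 fold change below 0 in GAS5 and 6 in siYAP, against 50.9% and 50.7% of all genes tested. ZNF518A and ZNF518B, partners of the H3K9 methyltransferases G9a and GLP, had log2 fold changes of -0.28 (-0.34 to -0.21) and -0.42 (-0.48 to -0.37) in GAS5. In siYAP they had -0.38 (-0.44 to -0.31) and -0.41 (-0.46 to -0.35). For ZNF518B the annotated transcript was at -1.53 in siYAP and the transcript assembled from the reads at -0.03. ZNF644, another partner of these enzymes, was at -0.03 in GAS5 and -0.16 in siYAP. ZNF711, which works with the demethylase PHF8, was at -0.30 and -0.43. ZNF609, a partner of the cohesin loader, was at -0.30 (-0.35 to -0.26) in GAS5 and -0.01 (-0.05 to 0.03) in siYAP. Its most abundant annotated transcript was at -0.10 in GAS5 and its assembled transcript at -0.50. ZNF592, ZNF687 and ZNF532, which act together in a ZMYND8 complex, stayed between -0.13 and 0.14 in both. ZNF827, which recruits the NuRD complex, was at -0.16 and 0.10. The medians over the 9 were -0.16 and -0.08, and none passed 1.5-fold, which is again near the background.

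Of the 5 factors with developmental or metabolic roles, 2 were expressed. ZNF503 is given above, and ZNF746, a substrate of parkin, had 1155 mean counts in NC, 1479 with GAS5 and 1124 with siYAP. Its log2 fold change was 0.36 (0.28 to 0.44) in GAS5 and -0.04 (-0.12 to 0.05) in siYAP. ZNF521 had 5.0 mean counts in NC, and ZNF536 and ZNF750 were listed at 0 in NC.

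The partners that KRAB proteins use were all expressed, and none of the 18 genes of the co-repressor list passed 1.5-fold in either group. Of all genes tested, 2.02% were at least 1.5-fold lower and 2.47% higher in GAS5, and 4.36% and 2.83% in siYAP. A count of none in 18 is thus near the background. TRIM28 had 25323 mean counts in NC, 31704.8 with GAS5 and 27953.6 with siYAP, log2 fold changes of 0.32 (0.31 to 0.34) and 0.14 (0.13 to 0.16), and NC was its lowest group. SETDB1, the methyltransferase, was at -0.02 and 0.04, and its stabilising partner ATF7IP at -0.26 and -0.37. The HP1 genes CBX1, CBX3 and CBX5 were at -0.28, -0.13 and -0.12 in siYAP. The HUSH complex genes MPHOSPH8, FAM208A (TASOR) and PPHLN1 were at -0.29, -0.28 and -0.25 in siYAP, while PPHLN1 was at 0.15 in GAS5. SUMO2, a modifier that TRIM28 uses, was the lowest of the list in siYAP at -0.43 (-0.46 to -0.39). The list's medians were -0.10 in GAS5 and -0.13 in siYAP, with a median GC content of 44.2%.

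**Figure D5:**
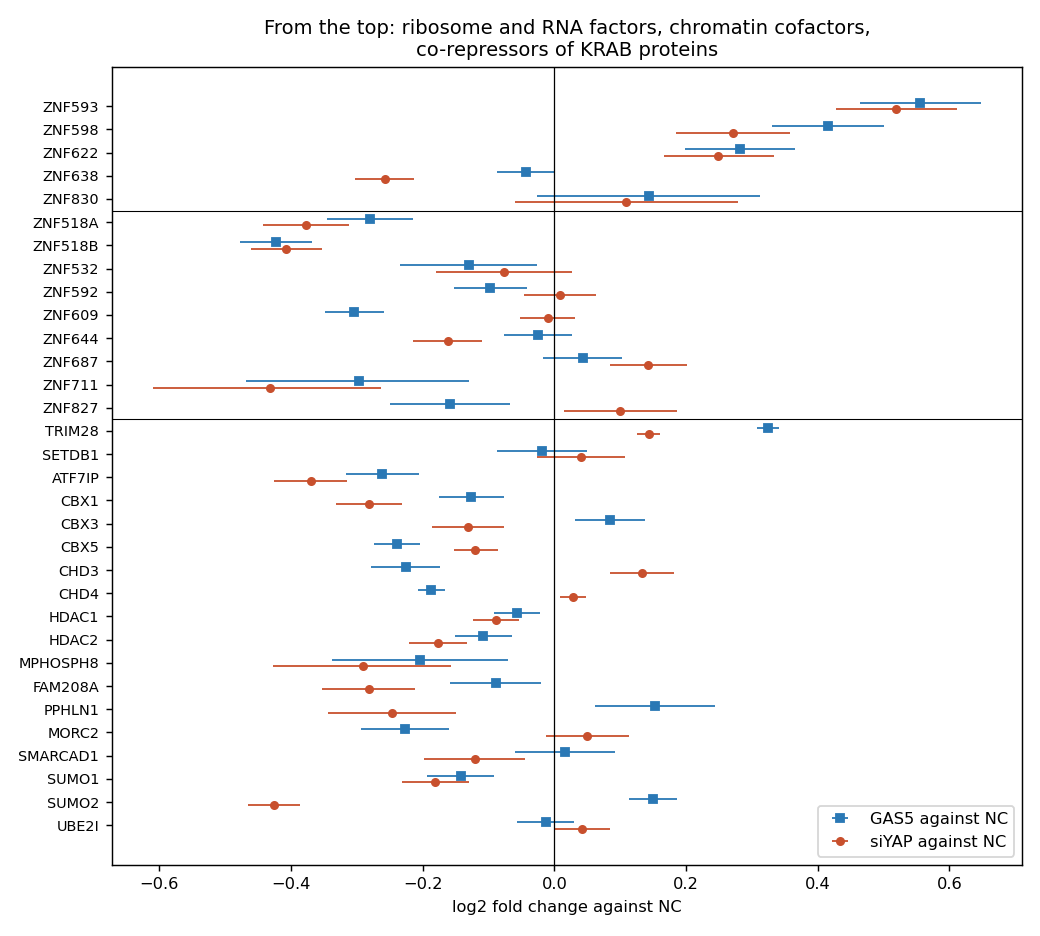
Log2 fold change against NC (x axis) with 95% counting intervals (horizontal bars) in GAS5 (squares) and siYAP (circles) for the ribosome and RNA factors, the chromatin cofactors and the co-repressors of KRAB proteins (y axis). ZNF593, ZNF598, ZNF622 and TRIM28 lie over 0 in both groups, and ZNF518A, ZNF518B, ZNF711 and ATF7IP under 0 in both.

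Other zinc finger families were set beside the 163 genes. The 196 expressed ZNF genes numbered under 500 or from 900 had a siYAP median of -0.20 and a GAS5 median of 0.01. In siYAP 18 of them (9.18%) were at least 1.5-fold lower and 3 (1.53%) higher, against 4.36% and 2.83% of all genes tested. The siYAP median was -0.24 in 6 ZKSCAN genes, -0.14 in 39 ZBTB genes, -0.14 in 12 ZFP genes and -0.10 in 13 ZSCAN genes. In 18 KLF and SP genes it was 0.01. A siYAP median below 0 was thus also seen in ZNF genes with other numbers.

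Single transcripts varied more than gene sums. Of 315 transcripts of these genes with at least 50 mean counts, 27 (8.57%) were at least 2-fold lower in siYAP and 15 (4.76%) higher, against 5.56% and 4.07% of all 26020 transcripts. In GAS5, 11 (3.49%) were lower and 19 (6.03%) higher, against 4.32% and 4.46%. In all, 54 transcripts of 40 genes passed 2-fold in at least 1 comparison, and for 44 of the 54 the gene sum lay within 0.5 of NC (log2 scale) under both treatments. ZNF518A is an example, since 1 of its transcripts had 357.4 counts in NC and 0.03 in siYAP while another had 112.2 and 485.8, and the sum moved by -0.38. The ZNF598 transcript listed at 0 in NC had 294.8 counts in GAS5 and 142.2 in siYAP. Such values are estimates that divide shared reads among transcripts of 1 gene, and without libraries the division could not be checked.

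Genes near the minimum had wide intervals. The 3 just inside it were ZNF527, ZNF738 and ZNF565, with means of 52, 53.2 and 55.8 over the 3 groups. The 3 just outside were ZNF573, ZNF547 and ZNF814, with 49.4, 45.8 and 45.4. ZNF814 would have counted as lower in both groups, at -0.61 in GAS5 and -0.97 in siYAP.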

How the data were processed

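RNA was sequenced in HCT116 cells in 3 groups of 2 libraries, and the sample labels gave the groups. Per the labels, reads were aligned with TopHat2 2.1.1; the counter, genome build and annotation are not given in the sources used here. The deposited expected counts (estimated counts per transcript) and FPKM are the authors' means per group, and 0 FPKM is written as 0.001. The deposited columns of fold change, p-value, FDR and significance were not used. Transcripts were summed by symbol; 339 without one (0.224% of NC counts) were left out. Sums were scaled by TMM in edgeR 4.0.16 (R 4.3.3), and 2 counts were added to each sum before log2 fold changes were taken, so those of low genes are understated. A gene was called at 1.5-fold, with no test, and other genes were weighted by bins of mean count. KRAB motifs, fingers, GC content and stretches of 50 bases came from GENCODE 29, promoters from RefSeq. Steps were tested on simulated data. Total counts were 25521577 to 27206123 per group mean. Members, gene lists and comparisons were chosen with earlier results of these data known. The text names the 8 lowest and 8 highest members per comparison, the 10 with the highest FPKM in NC and the listed role genes; ZNF724, ZNF699, ZNF674, genes named for single transcripts and the bins of GC content were chosen after their values were seen. Alternatives were DESeq2 1.42.0 size factors, total counts, other filters, priors, thresholds, FPKM ratios and subsets of transcripts or genes.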

Additional observations from a re-analysis of the deposited data

How the results depend on the processing

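The medians kept their sign under every scaling, filter, prior and subset tried: from 0.036 to 0.062 in GAS5 and from -0.176 (total counts) to -0.085 (genes at least 95% unique, a choice made after seeing the data) in siYAP. The numbers past 1.5-fold depended on settings, and they are given here without the share of all genes at each setting. With no filter on low counts, 7 genes were lower and 15 higher in GAS5, and 19 lower and 9 higher in siYAP. With a mean of at least 200, 0 were higher in GAS5 and 5 lower in siYAP. With an NC sum of at least 50, 1 was lower in GAS5, and with the ratio of summed FPKM also 1. With Ensembl transcripts alone, 5 were lower and 5 higher in GAS5 and 3 were higher in siYAP, and ZNF697 changed sign to -0.14 in siYAP. At a threshold of 2-fold, 1 gene was higher in GAS5, and 1 lower and 0 higher in siYAP. With genes at least 95% unique, 6 were lower in siYAP. Of the values of single genes and of the KRAB classes, 1266 stayed within counting error and 69 moved outside it without a change of sign in a gene past 1.5-fold. No paired analysis was possible because each group has 1 deposited mean and no library values; leaving out single libraries and the DESeq2 test were not run for the same reason. Depth limits single genes near the minimum of 50 counts.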
